A study of Rattus norvegicus with 6 samples.

Results

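The genes that carry, take up, store and export iron were followed in rat oligodendrocyte cultures. Oligodendrocytes wrap axons of the brain and spinal cord in myelin. They were chosen as the entries of the deposited table whose symbol was Tf, Tfrc, Hfe, Steap3, Slc11a2, Fth1, Ftl1, Slc40a1 or Cp. These 9 symbols gave 10 of the 37991 entries, since Slc40a1 appears under 2 identifiers, and all 10 passed the filter on low counts that 17797 entries passed. The differentiated group held 3 libraries of oligodendrocytes from SD rats after a change of growth factors in Raff medium, and the precursor group held 3 libraries of oligodendrocyte precursors from SD rats in Raff medium before that change. The titles number the libraries 1, 2 and 5 in each group and place replicates 1 and 2 at day 3 for differentiated cells and day 0 for precursors. No treatment or allele other than the medium change is given in the labels. They do not say whether replicates came from separate cultures or animals. The p-values therefore cover the spread among these 6 libraries, which may be technical. Each library holds the RNA of a whole culture, so that fewer cells of a type and less RNA per cell cannot be told apart.

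Iron travels outside cells bound to transferrin, which enters cells with the transferrin receptor. In the acidic endosome the metal is released, reduced by the metalloreductase Steap3 and moved into the cytosol by the transporter Slc11a2. Surplus iron is stored in ferritin, a shell of heavy chains (Fth1), which oxidise iron, and light chains (Ftl1), which help it to mineralise. The exporter ferroportin (Slc40a1) releases iron together with a copper ferroxidase, ceruloplasmin (Cp) or hephaestin. Oligodendrocytes are known as iron-rich cells of the adult brain that contain transferrin and ferritin, and iron is a cofactor of enzymes of lipid synthesis. Ferritin and transferrin receptor messages are also controlled after transcription by the iron regulatory proteins, which RNA levels do not show.

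Total counts per library ran from 55522101 to 79898629. The labelled cell type was checked on 10 oligodendrocyte markers, 8 of which were higher in differentiated cells and 0 lower at an edgeR adjusted p under 0.05. Their summed level lay between 18961 and 22478 CPM in differentiated libraries and between 1662 and 2385 CPM in precursor libraries, where CPM is a gene's read count scaled to library size, with TMM factors between libraries. Of 7 oligodendrocyte precursor markers 0 were called in either direction. Their sums overlapped between groups, so the check shows a gain of oligodendrocyte markers and no loss of precursor markers. Both replicate 1 libraries stood apart on the second principal component, at 73.5 (differentiated) and 41.8 (precursor), while the other libraries lay between -55.9 and -3.64. They also held the highest summed levels of 13 microglia and macrophage markers, 1099 CPM in differentiated 1 and 1492 CPM in precursor 1, against 555 to 617 CPM in the other 4 libraries. Where leaving them out changed the call or the sign of an entry chosen above, both values are given. For other iron genes both values are given only in part.

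The promoters of the carrier and of its receptor are shown because these partners in uptake gave unlike values below. The letters are the 150 bases before the annotated start, 5′ to 3′, from RefSeq on the build GRCr8. They lie on the minus strand at chr8:112695377-112695526 for Tf and chr11:81690319-81690468 for Tfrc. Capitals mark TATAAA, the core of the TATA box, and ACGTG or GCGTG, cores bound by hypoxia-inducible factors, each searched on both strands.
Tf: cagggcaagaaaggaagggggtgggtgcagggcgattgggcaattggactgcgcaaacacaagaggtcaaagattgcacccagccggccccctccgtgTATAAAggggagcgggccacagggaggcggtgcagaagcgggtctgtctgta
Tfrc: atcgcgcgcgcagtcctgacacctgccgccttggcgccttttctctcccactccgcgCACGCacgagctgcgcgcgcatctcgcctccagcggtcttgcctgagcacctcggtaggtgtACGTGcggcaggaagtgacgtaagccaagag
The Tf window held TATAAA, beginning 52 bases before the start, and neither hypoxia core. The Tfrc window held ACGTG beginning 31 bases before the start and GCGTG on the other strand, beginning 93 bases before it, and no TATAAA. Of 33469 promoter windows of this length, 8.0% held TATAAA, 10.8% held ACGTG and 18.8% held GCGTG. These matches describe the letters alone.

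Of the 10 entries, 1 was lower in differentiated cells, 0 were higher and 9 did not pass the test, where a call is an adjusted p under 0.05 in edgeR's quasi-likelihood test over all genes. At an unadjusted p under 0.05 in that test there were 2 of 10, against 4110 of all 17797 tested genes. Across all tested genes 8.86% were called, 5.65% as higher and 3.21% as lower, so a count of 1 in 10 is near the background. A p that misses the threshold does not show that a gene did not differ. The median log2 fold change was 0.03 over the 10 entries and -0.04 over all tested genes. CPM values of the groups did not overlap for 2 entries, Cp and Tf, both lower in differentiated cells. Of all tested genes 30.3% did not overlap, 16.5% with differentiated cells higher and 13.8% with differentiated cells lower. On the TPM scale Tfrc and Fth1 joined them, so that 4 entries were lower without overlap, against 25.9% of all genes. That scale moved the median of all genes to -0.17 (limma on log2(TPM + 1)), and scaling by library size alone moved it to -0.19.

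On the TPM scale, which takes account of transcript length, the ferritin chains were the most abundant members in both groups. In differentiated cells the order was Ftl1 (961 ± 95.7 TPM, SD, n = 3), Fth1 (522 ± 82.2), Tf (39.1 ± 12.3), Tfrc (35.8 ± 1.13), Cp (34.5 ± 18.7), Slc11a2 (22.6 ± 4.14) and Steap3 (6.28 ± 1.60). Hfe (0.586 ± 0.219) and both Slc40a1 entries (0.429 ± 0.0999 and 0.367 ± 0.0742) were lowest. From Tf down to Slc11a2 each gene overlapped the next over libraries, as did Hfe and the Slc40a1 entries. In precursors Cp followed Fth1 at 163 ± 29.9 TPM, then came Tf at 89.2 ± 13.3 TPM, and their ranges did not overlap. The order was otherwise the same, with overlap of neighbours only between Ftl1 (1024 ± 143 TPM) and Fth1 (770 ± 130 TPM) and between the Slc40a1 entries.

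**Figure D1:**
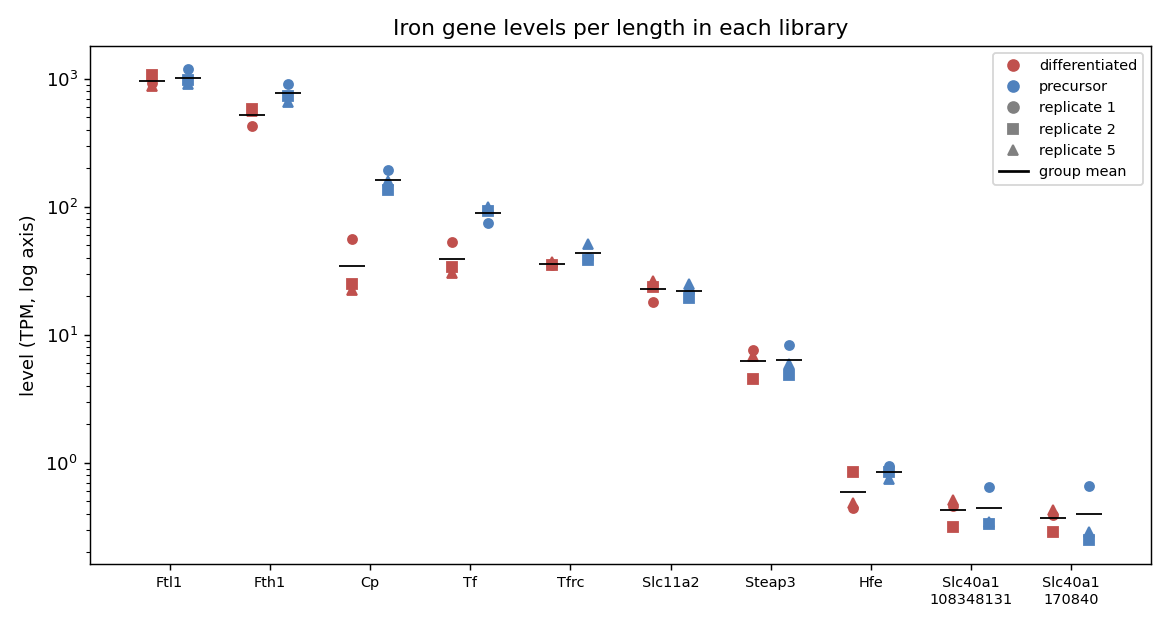
Level of each iron gene entry in TPM on a log axis, with differentiated libraries left of precursor libraries, marker shapes for replicates and lines at group means. Ferritin chains lie highest in both groups, and the differentiated libraries of Cp, Tf, Tfrc and Fth1 lie below all precursor libraries.

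Transferrin (Tf, 24825), the carrier, was at 146 CPM in differentiated 1, 77.9 CPM in differentiated 2 and 66.0 CPM in differentiated 5, against 177, 187 and 168 CPM in precursors 1, 2 and 5. All differentiated libraries lay below all precursor libraries, and differentiated 1 lay nearest to them. The means were 96.7 ± 43.3 CPM in differentiated cells and 177 ± 9.17 CPM in precursors (SD, n = 3 each). The log2 fold change was -0.87 (SE 0.28), short of the threshold with all 6 libraries (edgeR adjusted p = 0.114). It was negative in 3 of 3 same-numbered pairs, which follows from the lack of overlap. With the replicate number as a block it was -0.96 and passed (edgeR adjusted p = 0.0160), when 15.7% of all genes were called lower. Without both replicate 1 libraries it was -1.30 (edgeR adjusted p = 0.00087), in a fit where 8.29% of all genes were called lower. It passed without differentiated 1 (edgeR adjusted p = 0.00289) and in none of the other 5 fits that left out a single library, where the adjusted p ran from 0.132 to 0.289. It also passed with library size alone (edgeR adjusted p = 0.0475), in DESeq2 (adjusted p = 0.0150) and by limma on log2(TPM + 1) (adjusted p = 0.0201). Those fits called 1006 of 17797, 1198 of 25352 and 1000 of 17797 genes lower, against 571 of 17797 in the main fit.

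Transferrin is also made in the choroid plexus, so markers of that tissue are given beside it. Of 8 markers of choroid plexus and ependyma, 2 were lower and 0 higher in differentiated cells. Their summed level was 195 to 260 CPM in differentiated libraries and 309 to 479 CPM in precursor libraries, without overlap. Transthyretin (Ttr), its most abundant marker, was at 157, 211 and 188 CPM in differentiated 1, 2 and 5 and at 269, 432 and 398 CPM in precursors 1, 2 and 5. Differentiated 1 had the highest Tf and the lowest Ttr among differentiated libraries, while precursor 2 had the highest of both among precursors. The part of such cells in the Tf values was not tested.

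The transferrin receptor (Tfrc, 64678), which brings iron-loaded transferrin into the cell, stood at 203, 170 and 168 CPM in differentiated 1, 2 and 5 and at 198, 163 and 180 CPM in precursors 1, 2 and 5. The ranges overlapped throughout, at 180 ± 19.7 CPM in differentiated cells and 180 ± 17.5 CPM in precursors (SD, n = 3 each). Its log2 fold change was -0.0012 with an SE of 0.12 (edgeR adjusted p = 0.998), and from -0.26 to 0.05 over the alternative settings. On the TPM scale it was at 35.2, 35.1 and 37.1 TPM in differentiated 1, 2 and 5 and at 39.9, 38.6 and 51.3 TPM in precursors 1, 2 and 5. There the groups did not overlap, and the log2 fold change of -0.26 did not pass (limma adjusted p = 0.364). The ratio of Tf to Tfrc, in TPM within a library, was 1.51, 0.960 and 0.822 in differentiated 1, 2 and 5 and 1.87, 2.40 and 1.96 in precursors 1, 2 and 5. Transferrin message thus exceeded receptor message per length in every precursor library and in differentiated 1 alone among differentiated libraries.

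Hfe (29199), which binds the receptor and takes part in iron sensing, was sparse. It had 64, 86 and 39 reads in differentiated 1, 2 and 5 and 94, 80 and 66 reads in precursors 1, 2 and 5. That is 0.978 ± 0.320 CPM in differentiated cells and 1.17 ± 0.282 CPM in precursors (SD, n = 3 each), with overlapping ranges. Its log2 fold change of -0.26 had an SE of 0.41 (edgeR adjusted p = 0.773).

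The endosomal steps showed no difference that passed the test. Steap3 (170824), the reductase of the transferrin cycle, was at 24.2, 12.1 and 17.1 CPM in differentiated 1, 2 and 5 and at 23.0, 11.4 and 11.6 CPM in precursors 1, 2 and 5. Replicate 1 was the highest library in each group, and the groups overlapped. Its log2 fold change was 0.22 (SE 0.36, edgeR adjusted p = 0.779) with the differentiated library higher in 3 of 3 same-numbered pairs. It was 0.35 without both replicate 1 libraries and 0.61 without precursor 1 alone, and -0.061 without differentiated 1. Slc11a2 (25715), also called DMT1, was at 68.0, 73.5 and 78.1 CPM in differentiated 1, 2 and 5 and at 69.3, 54.4 and 59.3 CPM in precursors 1, 2 and 5. Differentiated 2 and 5 lay above all precursor libraries and differentiated 1 did not. Its log2 fold change was 0.26 (SE 0.13, edgeR adjusted p = 0.274, and 0.104 with the replicate block). Without both replicate 1 libraries it was 0.42 and passed (edgeR adjusted p = 0.0417), in a fit where 8.69% of all genes were called higher. It was 0.023 by limma on log2(TPM + 1).

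**Figure D2:**
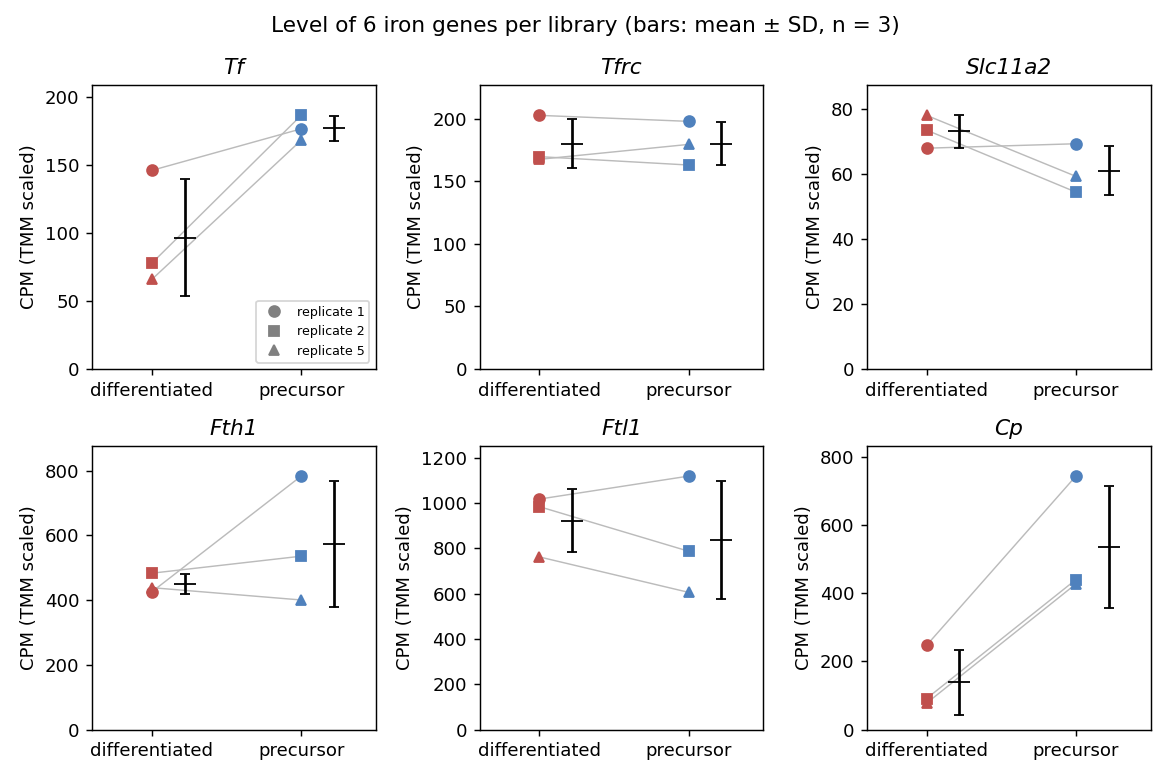
CPM of Tf, Tfrc, Slc11a2, Fth1, Ftl1 and Cp in each library, with differentiated left of precursor, grey lines joining libraries of the same number and bars for mean ± SD (n = 3). Tf and Cp are lower in each differentiated library than in its same-numbered precursor library, and Tfrc is near 180 CPM in both groups.

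Of the ferritin chains, Fth1 (25319), the heavy chain with ferroxidase activity, was at 425, 483 and 438 CPM in differentiated 1, 2 and 5 and at 783, 536 and 400 CPM in precursors 1, 2 and 5. Precursor 1 was far above the other libraries and precursor 5 below all. The log2 fold change was -0.35 (SE 0.23, edgeR adjusted p = 0.423), and without both replicate 1 libraries it was -0.015. By limma on log2(TPM + 1) it was -0.56 and did not pass (adjusted p = 0.0791), though the groups did not overlap in TPM. Ftl1 (29292), the light chain, was at 1018, 985 and 763 CPM in differentiated 1, 2 and 5 and at 1119, 788 and 606 CPM in precursors 1, 2 and 5, with overlapping groups. Its log2 fold change was 0.14 (SE 0.23, edgeR adjusted p = 0.785). It was 0.33 without both replicate 1 libraries (edgeR adjusted p = 0.234), and passed when the replicate block was added to that fit (edgeR adjusted p = 0.00082). That last setting was chosen after seeing the data and called 2900 of 17797 genes higher. By limma on log2(TPM + 1) the log2 fold change of Ftl1 was -0.087.

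The balance of the chains is given as a ratio. The Fth1 to Ftl1 ratio, in TPM within a library, was 0.461, 0.541 and 0.634 in differentiated 1, 2 and 5 and 0.771, 0.749 and 0.728 in precursors 1, 2 and 5. The means were 0.545 ± 0.0864 in differentiated cells and 0.749 ± 0.0215 in precursors (SD, n = 3 each), and the ranges did not overlap. A ratio within a library does not depend on how libraries are scaled, and it does not say which chain differed. This ratio was chosen after the values were seen and was not tested. The summed level of the chains was 1357, 1647 and 1447 TPM in differentiated 1, 2 and 5 and 2098, 1715 and 1570 TPM in precursors 1, 2 and 5, with overlap.

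Ferritin genes have many near-identical copies among which reads can be split. Entries for 14 copies of Ftl1 held between 17901 and 25456 reads per library, or 34.3% to 42.7% of the reads of Ftl1 itself. The 5 copies of Fth1 held 63 to 175 reads per library. With copies added, the Fth1 to Ftl1 ratio in reads was 0.311, 0.365 and 0.405 in differentiated 1, 2 and 5 and 0.521, 0.508 and 0.471 in precursors 1, 2 and 5, still without overlap. With copies summed, the log2 fold change was -0.35 for Fth1 and 0.15 for Ftl1.

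Ferroportin (Slc40a1), the exporter, was sparse in all libraries. The entry 170840 had 90, 50 and 60 reads in differentiated 1, 2 and 5 and 116, 42 and 41 reads in precursors 1, 2 and 5. The entry 108348131 had 130, 68 and 86 reads in the same differentiated libraries and 140, 69 and 59 reads in the precursor libraries. Replicate 1 was highest in each group for both entries. Whether the entries share reads is not given in the sources used here. Their log2 fold changes were 0.071 (SE 0.56, edgeR adjusted p = 0.961) and 0.16 (SE 0.47, edgeR adjusted p = 0.888), and that of their summed reads was 0.12. Without both replicate 1 libraries they were 0.69 and 0.56, and without precursor 1 alone 0.83 and 0.71, and they did not pass in these fits either (edgeR adjusted p from 0.39 to 0.449).

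Ceruloplasmin (Cp, 24268), the ferroxidase that works with ferroportin, fell in differentiated cells. It was at 247, 91.2 and 77.7 CPM in differentiated 1, 2 and 5, against 744, 440 and 427 CPM in precursors 1, 2 and 5. Every differentiated library lay below every precursor library, and replicate 1 was the highest library of each group. The means were 139 ± 94.3 CPM in differentiated cells and 537 ± 179 CPM in precursors (SD, n = 3 each). The log2 fold change was -1.95 (SE 0.47, edgeR adjusted p = 0.0470), 3.87-fold lower in differentiated cells. It was negative in 3 of 3 same-numbered pairs, which follows from the lack of overlap. With the replicate block it was -2.11 (edgeR adjusted p = 0.000387), and without both replicate 1 libraries -2.35 (edgeR adjusted p = 8.57e-05). The call was lost with no filter on low counts (edgeR adjusted p = 0.104). It was also lost without differentiated 2 (0.152), differentiated 5 (0.136), precursor 1 (0.0699), precursor 2 (0.108) or precursor 5 (0.0828), and kept without differentiated 1 (0.00394). Over all these settings its log2 fold change lay between -2.66 and -1.67.

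In rat brain a membrane-anchored form of ceruloplasmin is known from astrocytes. Of 10 astrocyte markers, 5 were higher and 0 lower in differentiated cells. Their summed level was 7605 to 7843 CPM in differentiated libraries and 4258 to 5956 CPM in precursor libraries, the opposite direction to Cp. The summed level of 9 fibroblast and pericyte markers was 187, 43.0 and 52.0 CPM in differentiated 1, 2 and 5 and 302, 76.5 and 87.5 CPM in precursors 1, 2 and 5. Like Cp, that sum was lower in each differentiated library than in its same-numbered precursor library and highest in replicate 1 of each group. Unlike Cp, its groups overlapped. The summed microglia and macrophage markers had the same traits. Summed choroid plexus and ependyma markers were lower in differentiated libraries without overlap, as Cp was, but lowest in replicate 1 of each group. Of the fibroblast and pericyte markers 1 rose, 0 fell and Rgs5 was at 0 reads in every library. The part of such cells in the Cp values was not tested.

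Microglia and macrophages are known for high ferritin and ferroportin. Their 13 markers gave 1 higher and 0 lower call, and the sum overlapped between groups, at 1099, 604 and 555 CPM in differentiated 1, 2 and 5 and 1492, 617 and 588 CPM in precursors 1, 2 and 5. Tfrc, Ftl1, Steap3, Cp and both Slc40a1 entries were highest in replicate 1 of each group. Fth1, Hfe and Slc11a2 were highest in replicate 1 among precursors only, and Tf among differentiated libraries only. The part of these cells in those values was not tested. Endothelial markers summed to 22.3 to 42.5 CPM in differentiated libraries and 17.2 to 50.04 CPM in precursor libraries, with Cldn5 and Emcn at 0 reads in all 6 libraries. Neuronal markers summed to 28.0 to 36.9 CPM in differentiated libraries and 31.5 to 59.1 CPM in precursor libraries, with 0 of 9 tested called higher and 1 lower. Among 7 precursor markers none was called, and their sums overlapped at 1309 to 1753 CPM in differentiated libraries and 1291 to 2196 CPM in precursor libraries.

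**Figure D3:**
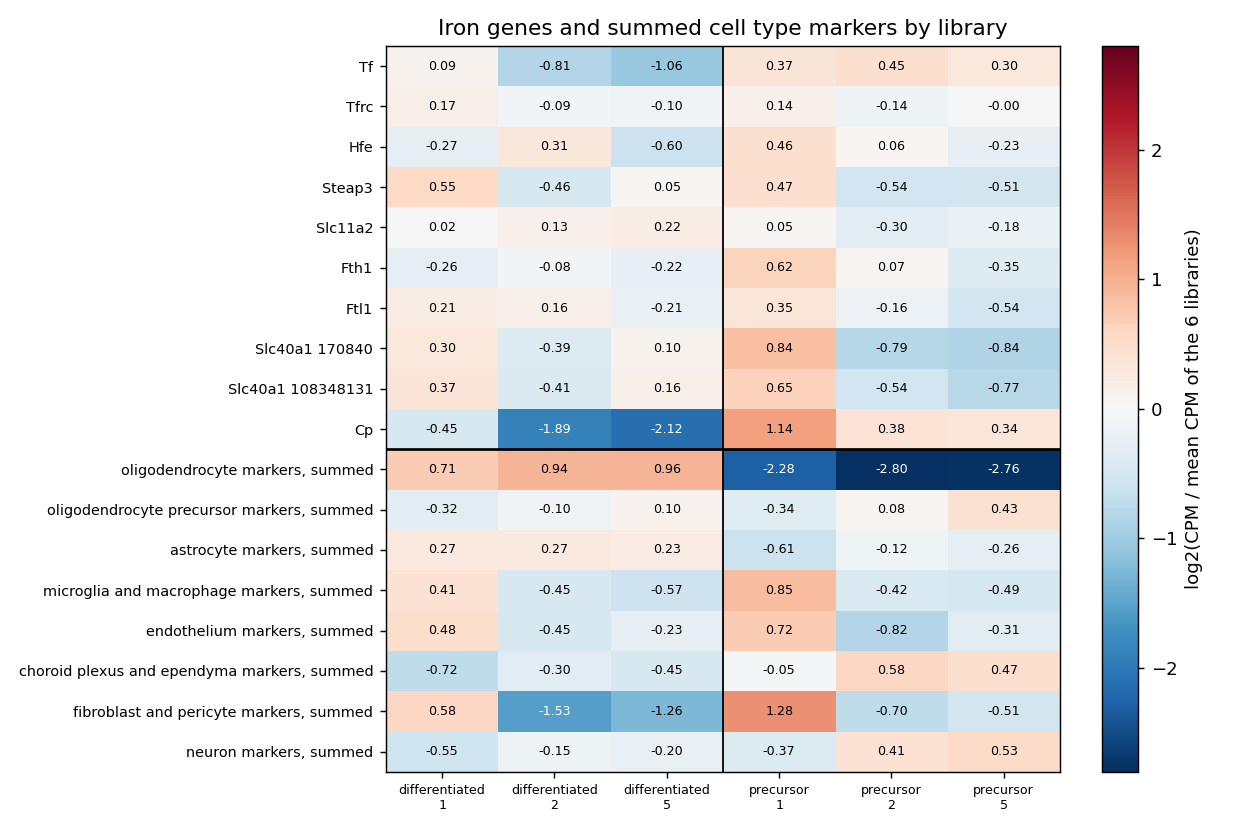
Log2 of CPM over its mean across the 6 libraries, for each iron gene entry (above the black line) and for the summed CPM of each marker list (below it), with differentiated libraries left of precursor libraries. Differentiated 2 and 5 are lowest for Tf and Cp, and the replicate 1 libraries are highest for summed microglia and macrophage markers.

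**Figure D4:**
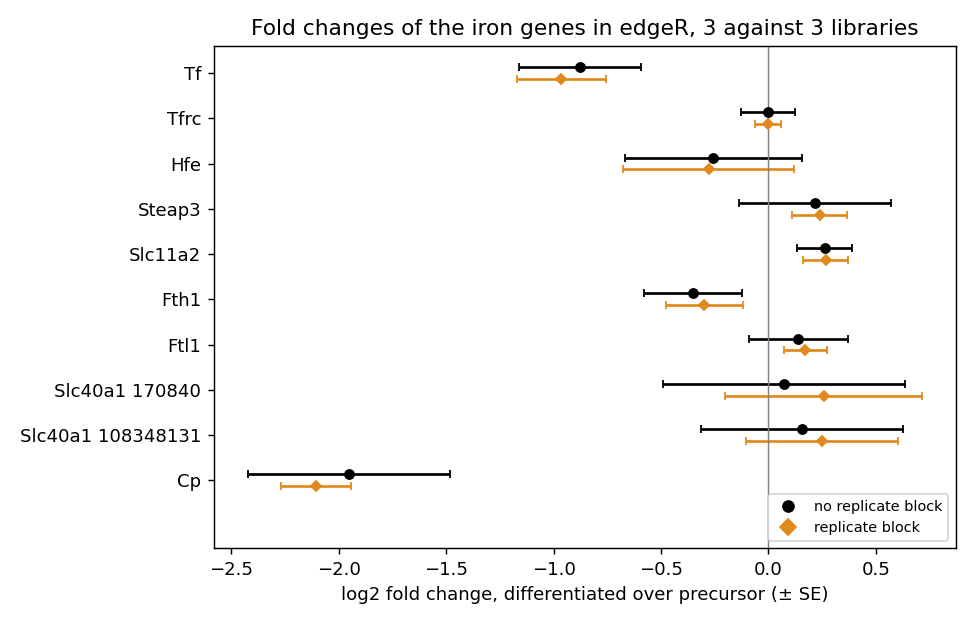
Log2 fold change of each entry, differentiated over precursor, with its SE as bars, without the replicate block (black circles) and with it (orange diamonds). Cp and Tf lie well below 0 in both fits, while Tfrc lies at 0.

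The genes whose log2 CPM over the 6 libraries was most like that of Tf, by Pearson correlation among 17796 genes, were Tesc (0.997), Eya2 (0.996), Crabp2 (0.993), Col4a3 (0.992) and LOC108348046 (0.992). The points share the same 6 libraries in 2 groups, and the values are a description with no test. Crabp2, a retinoic acid binding protein, was at 5.18 ± 2.76 CPM in differentiated cells and 12.8 ± 1.24 CPM in precursors (SD, n = 3 each). Col4a3 averaged 0.0557 CPM in differentiated cells and 0.294 CPM in precursors. Among the iron genes Cp came nearest to Tf (0.960, rank 123) and Slc11a2 was farthest (-0.81, rank 16377).

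The wider iron pathway was followed on 90 other genes in 5 lists, of which 85 passed the filter. Of these 6 were higher and 2 lower in differentiated cells, or 9.41% called against 8.86% of all tested genes, with a median log2 fold change of 0.13 against -0.04. With the replicate block 26 were higher and 8 lower, against 14.9% and 15.7% of all genes.

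Among 17 genes of uptake, ferroxidase activity and export, 1 was higher, 2 were lower and 14 were not called (median log2 fold change -0.38), and with the replicate block 5 were higher and 5 lower. Slc39a14, a transporter of iron outside transferrin, fell to 23.5 ± 2.24 CPM in differentiated cells, against 36.4 ± 2.47 CPM in precursors (SD, n = 3 each, log2 fold change -0.63, SE 0.13, edgeR adjusted p = 0.0256). Cybrd1, a ferric reductase, fell to 2.63, 1.74 and 2.24 CPM in differentiated 1, 2 and 5, against 6.56, 4.25 and 5.29 CPM in precursors 1, 2 and 5 (edgeR adjusted p = 0.0317). Its log2 fold change was -1.28 (SE 0.28). App, the amyloid precursor protein, which has been linked to ferroportin, rose to 510 ± 54.1 CPM in differentiated cells, against 284 ± 14.1 CPM in precursors (log2 fold change 0.84, edgeR adjusted p = 0.0052). Heph, the hephaestin ferroxidase related to Cp, was at 71.9, 42.7 and 43.7 CPM in differentiated 1, 2 and 5 and at 84.2, 44.7 and 38.4 CPM in precursors 1, 2 and 5. The groups overlapped and the log2 fold change was -0.080 (SE 0.34, edgeR adjusted p = 0.921).

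The calls of Slc39a14 and Cybrd1 were lost without differentiated 2, differentiated 5, precursor 2 or precursor 5, where edgeR's adjusted p reached 0.114 for Slc39a14 and 0.123 for Cybrd1. That of Cybrd1 was also lost without precursor 1 (0.0603), and that of Slc39a14 by limma on log2(TPM + 1) (adjusted p = 0.0518). The call of App was lost only on the TPM scale among the settings tried (limma adjusted p = 0.105 with a pseudocount of 1).

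Iron sensing and ferritin handling gave 2 higher, 0 lower and 11 uncalled genes of 13 tested (median log2 fold change 0.04), and with the replicate block 4 were higher and 1 lower. Bmp6, which stimulates hepcidin in liver, rose to 6.61 ± 0.942 CPM in differentiated cells, against 2.48 ± 0.342 CPM in precursors (SD, n = 3 each, log2 fold change 1.41, edgeR adjusted p = 0.0108). Without differentiated 2 the call was lost (edgeR adjusted p = 0.0574). Pcbp1, an iron chaperone for ferritin that also binds RNA, rose to 43.6 ± 6.20 CPM in differentiated cells, against 28.8 ± 1.97 CPM in precursors (edgeR adjusted p = 0.0437). The call of Pcbp1 was lost in 5 of 6 fits that left out a library, on the TPM scale, with library size alone and with the size factors of DESeq2 in edgeR, where the adjusted p reached 0.397. Hamp, the hepcidin gene, and Ftmt had 0 reads in every library.

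The iron regulatory proteins and their partners did not pass the test. Aco1, which is iron regulatory protein 1, was at 228 ± 16.1 CPM in differentiated cells and 197 ± 14.4 CPM in precursors (edgeR adjusted p = 0.296, and 0.0418 with the replicate block). Ireb2, iron regulatory protein 2, was at 62.3 ± 5.54 CPM in differentiated cells and 73.1 ± 14.6 CPM in precursors (edgeR adjusted p = 0.460). Fbxl5, which targets that protein for breakdown, had a log2 fold change of 0.042 (SE 0.12), and Ncoa4, the receptor for ferritin turnover, of -0.0032 (SE 0.15).

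**Figure D5:**
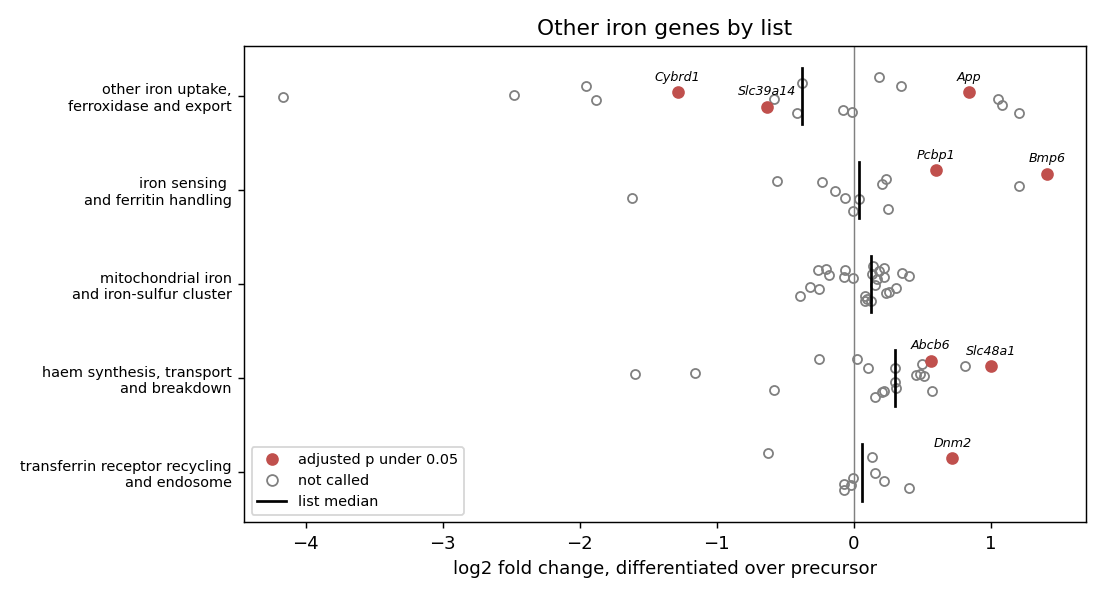
Log2 fold change, differentiated over precursor, of the other iron genes that passed the count filter, by list, with filled points for an adjusted p under 0.05, open points for the rest and black lines at list medians. Slc39a14 and Cybrd1 are called below 0, and App, Bmp6, Pcbp1, Abcb6, Slc48a1 and Dnm2 above it.

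Of 20 haem genes tested, 2 were higher, 0 lower and 18 not called (median log2 fold change 0.30), and with the replicate block 9 were higher and 1 lower. Slc48a1, which moves haem out of endosomes and lysosomes, rose to 140 ± 10.01 CPM in differentiated cells, against 69.5 ± 9.83 CPM in precursors (SD, n = 3 each, log2 fold change 1.00, SE 0.13, edgeR adjusted p = 0.00465). Abcb6, a porphyrin transporter, rose to 105 ± 2.02 CPM in differentiated cells, against 70.7 ± 5.09 CPM in precursors (edgeR adjusted p = 0.0163). The call of Abcb6 was lost with library size alone (edgeR adjusted p = 0.0714), on the TPM scale (limma adjusted p = 0.357), and without differentiated 2 (0.0994), differentiated 5 (0.0677) or precursor 5 (0.0633). Hmox1, the inducible haem oxygenase, was at 93.5, 66.4 and 58.8 CPM in differentiated 1, 2 and 5 and at 174, 83.8 and 69.4 CPM in precursors 1, 2 and 5. It was lower in 3 of 3 same-numbered pairs and passed with the replicate block (log2 fold change -0.49, edgeR adjusted p = 0.0325, against 0.390 without it). Without the block the log2 fold change was -0.58 with all 6 libraries, -0.28 without both replicate 1 libraries and -0.089 without precursor 1.

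None of 25 genes of mitochondrial iron and iron-sulfur clusters was called (median log2 fold change 0.13), and with the replicate block 5 were higher and 1 lower. Slc25a37, mitoferrin 1, was at 6.78 ± 0.544 CPM in differentiated cells and 8.07 ± 4.07 CPM in precursors (SD, n = 3 each, edgeR adjusted p = 0.727). Of 10 genes of transferrin receptor recycling, Dnm2 alone was called, as higher (median log2 fold change 0.06), and with the replicate block 3 were higher and 0 lower. This dynamin, which pinches off endocytic vesicles, rose to 245 ± 17.6 CPM in differentiated cells, against 149 ± 8.18 CPM in precursors (log2 fold change 0.72, SE 0.10, edgeR adjusted p = 0.00644). On the TPM scale Dnm2 was not called (limma adjusted p = 0.163).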

How the data were processed

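Per the labels' protocols, total RNA was sequenced from TruSeq Stranded libraries. Per the submitters' processing notes, the tools were StringTie 2.1.3b, HISAT2 2.1.0, Trimmomatic 0.38 and bcl2fastq 2.20.0, and the build is named as GRCh38, a human assembly, although the table carries rat gene identifiers. The sources used here name no rat build, annotation or strand setting, so overlapping and antisense genes cannot be told apart. The authors deposited whole-number read counts that are not normalized, and FPKM and TPM values that they scaled by length and library. FPKM was not used.

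Counts were tested with edgeR 4.0.16 (quasi-likelihood, robust, TMM scaling, filterByExpr) in R 4.3.3, 3 against 3 libraries, with Benjamini-Hochberg adjustment over 17797 genes. The SE is the log2 fold change over the square root of F. Alternatives used DESeq2 1.42.0 and limma 3.58.1 (log2(TPM + 1) and log2(TPM + 0.1)). The fit was also run on simulated counts with the same dispersion for every gene and no replicate effect. That run therefore does not cover the spread of replicate 1 seen here. Leave-one-out fits kept the same genes. Deviations from group means correlated at 0.421, 0.197 and 0.272 between libraries numbered 1, 2 and 5. Between libraries of unlike number they ran from -0.308 to 0.105. Numbers were taken to pair samples in the block fits and pair counts, which the labels do not state. For 2 and 5 this rests on little, since their unlike values were 0.105 and 0.0987. The main fit has no block. RefSeq tables of GRCr8 matched 9 of 10 entries and held promoters for 6 symbols. Members and lists were chosen with earlier results of these data known. Named among other iron genes are those called and, whatever their values, Aco1, Ireb2, Fbxl5, Ncoa4, Slc39a14, Heph, Hmox1, Slc25a37 and Cybrd1, of which Slc39a14 and Cybrd1 were also called. Hamp and Ftmt were named after their values of 0 were seen. The values of the 5 genes most like Tf are a description.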

Additional observations from a re-analysis of the deposited data

How the results depend on the processing

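No iron gene entry was called higher, except 1 without both replicate 1 libraries and 2 when the replicate block was added to that fit. The number of entries called lower was 1, and it was 2 with library size alone, with DESeq2, with the replicate block, without both replicate 1 libraries with or without the block, and by limma with either pseudocount. It was 0 with no low-count filter and 0 to 2 when single libraries were left out. Other iron genes called higher numbered 6, and 11 with DESeq2, 26 with the replicate block, 15 without both replicate 1 libraries, 29 when the block was added there, 2 by limma with either pseudocount and 3 to 8 with single libraries left out. Those called lower numbered 2, and 4 with DESeq2, 8 with the block, 7 without both replicate 1 libraries, 10 when the block was added there, 4 and 6 by limma with pseudocounts of 1 and 0.1, and 0 to 5 with single libraries left out. Over all genes, 1005 were higher and 571 lower. With the block these were 2643 and 2797, without both replicate 1 libraries 1546 and 1475, with both changes 2900 and 3008, by limma 487 and 1000 (pseudocount 1) or 509 and 1090 (0.1), and with single libraries left out 456 to 911 and 162 to 579. With library size alone the split was 678 higher and 1006 lower, and with DESeq2 1459 and 1198.

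Near 0, signs turned, given as log2 fold changes. Tfrc was at 0.00097 with no low-count filter and -0.086 to 0.055 with single libraries left out, and Hfe at 0.016 without both replicate 1 libraries. By limma with pseudocounts of 1 and 0.1, Steap3 was at -0.016 and -0.019, Ftl1 at -0.087 and -0.087, Slc40a1 170840 at -0.021 and -0.013, Slc40a1 108348131 at -0.0088 and -0.0058, Aco1 at -0.047 and -0.048, and Fbxl5 at -0.21 and -0.22. With library size alone, Slc40a1 170840 was at -0.046 and Fbxl5 at -0.11. Over single libraries left out, Steap3 ran from -0.061 to 0.61, Ftl1 from -0.057 to 0.39, Slc40a1 170840 from -0.22 to 0.83, Slc40a1 108348131 from -0.11 to 0.71, Heph from -0.36 to 0.32, Fbxl5 from -0.0035 to 0.10, Ncoa4 from -0.12 to 0.090 and Slc25a37 from -0.46 to 0.23. Without both replicate 1 libraries, without and with the block, Heph was at 0.062 and 0.065 and Slc25a37 at 0.18 and 0.18. The causes were not tested. The replicate block without both replicate 1 libraries and the summing of copies were chosen after seeing the data. Hfe and Slc40a1, with 39 to 140 reads per library and entry, are limited by depth.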
